A study of Mus musculus with 6 samples.

Results

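Macrophage marker genes were examined in adipose tissue RNA of KM mice, with 3 samples from mice fed radix Angelica sinensis (RAS), a medicinal plant root, and 3 from control mice. The RAS mice received 10.00 g per kg of body weight, the diet of the control mice is labelled only as control, and the series title speaks of a high-fat diet and an anti-obesity effect. The fat depot, the sex and the age are not stated. Whether a sample, numbered 1 to 3 in its group, comes from 1 animal or several is not stated either, and the p-values reflect only the spread between these samples. The marker set was a named list of 34 genes, all of which were among the 19928 genes of the authors' table, where F4/80 stands under its older symbol Emr1. By role it held 10 pan-macrophage and myeloid genes, 5 markers of resident-type macrophages, 5 markers of lipid-associated macrophages, 3 complement C1q genes, 5 Fc receptors and adaptors, 5 pattern-recognition and scavenger receptors, and the activation marker Cd83.

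Macrophages are the most numerous immune cells of fat. Resident-type macrophages carry scavenger and uptake receptors such as the mannose receptor Mrc1 and lie along vessels and between fat cells, whereas lipid-associated macrophages carry the lipid-sensing receptor Trem2 with Cd9 and Gpnmb and gather around dying fat cells in obesity. Both kinds depend on colony-stimulating factor acting through the receptor Csf1r, and many of their genes are switched on by the transcription factor PU.1.

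The promoters of 5 markers are shown because the results turn on them: Timd4, the marker with the largest difference relative to its standard error, Mrc1 and Trem2, which are textbook markers of resident-type and lipid-associated macrophages, and the neighbouring genes C1qb and C1qc, whose transcripts kept nearly the same ratio in every library. Each is a 300-base window from the RefSeq table for build GRCm38.p6, written 5′ to 3′ on the gene's strand, and capitals mark GAGGAA or its reverse complement TTCCTC, a purine-rich core of PU.1 sites. The windows are chr11:46810549-46810848 on the plus strand for Timd4, chr2:14229164-14229463 on the plus strand for Mrc1, chr17:48346151-48346450 on the plus strand for Trem2, chr4:136886151-136886450 on the minus strand for C1qb and chr4:136892865-136893164 on the minus strand for C1qc.
Timd4: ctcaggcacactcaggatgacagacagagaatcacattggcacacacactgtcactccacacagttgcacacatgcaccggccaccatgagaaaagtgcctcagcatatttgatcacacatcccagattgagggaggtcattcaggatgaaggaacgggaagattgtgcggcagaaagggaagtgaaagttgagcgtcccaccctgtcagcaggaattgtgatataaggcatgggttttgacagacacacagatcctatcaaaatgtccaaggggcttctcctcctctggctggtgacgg
Mrc1: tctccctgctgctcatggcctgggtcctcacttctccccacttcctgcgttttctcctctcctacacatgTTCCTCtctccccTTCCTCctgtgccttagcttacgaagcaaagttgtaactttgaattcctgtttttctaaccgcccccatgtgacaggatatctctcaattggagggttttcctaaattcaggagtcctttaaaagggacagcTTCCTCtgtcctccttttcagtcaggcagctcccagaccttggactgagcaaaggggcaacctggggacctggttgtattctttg
Trem2: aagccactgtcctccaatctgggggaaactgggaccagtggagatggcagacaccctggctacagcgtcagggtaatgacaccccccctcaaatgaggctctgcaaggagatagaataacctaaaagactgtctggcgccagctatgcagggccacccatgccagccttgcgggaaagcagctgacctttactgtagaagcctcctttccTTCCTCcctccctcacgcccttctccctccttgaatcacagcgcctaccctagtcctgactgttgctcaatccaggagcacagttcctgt
C1qb: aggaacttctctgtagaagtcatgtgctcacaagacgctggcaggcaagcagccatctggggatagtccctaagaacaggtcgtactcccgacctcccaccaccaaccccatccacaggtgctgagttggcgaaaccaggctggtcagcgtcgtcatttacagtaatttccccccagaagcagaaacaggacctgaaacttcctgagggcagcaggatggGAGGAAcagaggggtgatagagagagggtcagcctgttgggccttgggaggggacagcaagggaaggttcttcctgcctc
C1qc: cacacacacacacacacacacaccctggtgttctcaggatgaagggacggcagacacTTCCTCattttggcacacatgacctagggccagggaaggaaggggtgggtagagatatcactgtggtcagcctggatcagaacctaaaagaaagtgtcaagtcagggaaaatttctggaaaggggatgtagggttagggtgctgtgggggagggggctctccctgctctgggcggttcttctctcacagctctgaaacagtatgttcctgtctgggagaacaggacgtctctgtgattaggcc
The Mrc1 window held the letters 3 times, the Trem2, C1qb and C1qc windows once each, and the Timd4 window 0 times. RefSeq windows were matched for 25 of the 34 marker genes, 30 windows in all. The letters stood in 15 of those 30 windows (50%) and in 28.3% of the 32851 promoter windows of the same length. Clec7a and Fcgr3 had overlapping windows that were counted separately, and counted by gene the letters stood in 13 of 25. A match of letters is a description and does not show that a factor binds there. Only these letters were searched, so their absence does not show that a window lacks a PU.1 site.

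The macrophage markers were detected in every library, and the range of their sum in the RAS libraries overlapped that in the controls. Summed over the 34 markers, the level was 1151, 1432 and 1487 FPKM (fragments per unit of transcript length, scaled to library size) in RAS libraries 1 to 3, against 1084, 1313 and 1482 FPKM in control libraries 1 to 3. The means were 1356 ± 180 FPKM with RAS and 1293 ± 200 FPKM in controls (SD, n = 3 each), and RAS 1 and control 1 were the low libraries of their groups. Lyz2 gave the largest part of the sum, and without it the sums were 829, 998 and 1143 FPKM with RAS, against 855, 987 and 1038 FPKM in controls. Over all genes, FPKM summed to 411840 in control 2, the lowest library, and to 545256 in RAS 3, the highest. The sums given here and below were not corrected for this. In whole tissue, fewer macrophages and less marker RNA per macrophage cannot be told apart.

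Of the 34 markers, 31 had a mean of at least 1 FPKM over the 6 libraries and were tested with limma on log2(FPKM + 1), with p-values adjusted over all 12606 genes tested. Cx3cr1, Spp1 and Marco lay below that minimum. None of the 31 passed an adjusted p of 0.05, nor did any of the 12606 genes (0%), whose smallest adjusted p was 0.138. At an unadjusted p under 0.05, 1 of 31 markers (3.23%) was found, Timd4, against 10.3% of all genes tested, with 6.41% of all genes lower and 3.86% higher. The unadjusted calls over all genes were 486 higher and 808 lower, and with median-ratio size factors they were 664 higher and 640 lower, while on the authors' scaled counts they were 359 higher and 1192 lower. The RAS and control values stood apart without overlap for 2 of 31 markers (6.45%), Timd4 and Msr1, against 17.9% of all genes, and both were lower with RAS, a direction that 12.5% of all genes showed.

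Here and in the gene lists below, higher and lower counts go by the sign of the difference on log2(FPKM + 1). For the markers Csf1r, Folr2 and Lgals3, all near 0, this is not the sign of the difference in mean FPKM. The same holds for Tlr2, Pf4 and Nceh1 in the lists below. By the log2 sign 18 markers were higher with RAS and 13 lower, and 23 of the 31 differences were smaller than their own standard error. Their median log2 difference was 0.02, beside a median of −0.04 over all genes tested, of which 57.0% had a difference below 0. For 21 markers the log2 difference was under 0.2 in size. The median standard error was 0.20 for the markers and 0.15 for all genes tested. The direction counts moved with the scaling, from 20 higher and 11 lower with median-ratio size factors to 13 higher and 18 lower on the authors' scaled counts. They also moved with the libraries, to 12 higher and 19 lower without control 1, to 21 and 10 without RAS 1, to 10 and 21 with sample weights, and to 6 and 25 without both control 1 and RAS 3.

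**Figure D1:**
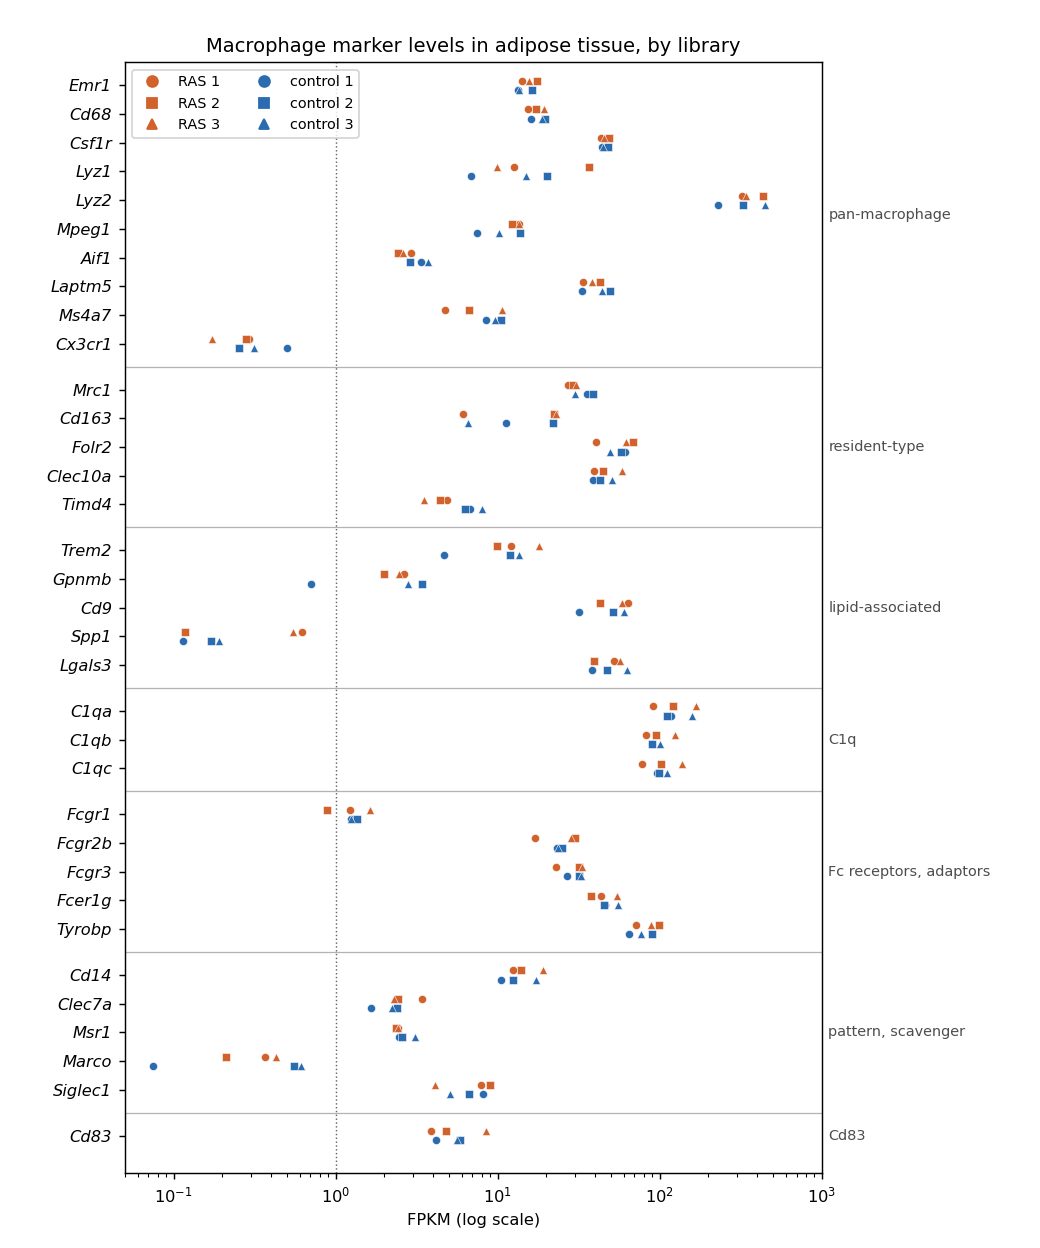
FPKM on a log axis of each of the 34 markers in the 3 RAS and 3 control libraries, 1 point per library, with markers grouped by role and a dotted line at 1 FPKM. RAS and control points overlap for every tested marker except Timd4 and Msr1, and levels run from under 1 FPKM for Cx3cr1, Spp1 and Marco to 445 FPKM for Lyz2.

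The libraries held 14.1 to 15.7 M scaled counts, which do not give the read depth, and 12462 to 12641 genes at 1 FPKM or more. Log2 values correlated at 0.972 on average within groups and 0.968 between groups. RAS 3 and control 1 lay at the ends of the first principal component (31.0% of the variance), so the main list medians are also given without this pair of libraries. Among the 34 markers, control 1 was the lowest library for 15 and RAS 1 for 12, while RAS 3 was the highest for 11. For a marker low in control 1 and high in RAS 3, leaving out this pair lowers the difference by construction. Controls 2 and 3 were the lowest library for 0 markers each.

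The pan-macrophage genes had 4 members higher and 5 lower with RAS among the 9 tested, with a median log2 difference of −0.00, and the counts were 6 and 3 without RAS 1 and 2 and 7 without control 1. Emr1, the F4/80 antigen and an adhesion G protein-coupled receptor, lay at 14.1, 17.5 and 15.7 FPKM in RAS libraries, against 13.3, 16.4 and 13.5 FPKM in controls. RAS 2 was the highest and control 1 the lowest, and the groups overlapped (log2 0.13 ± 0.13 SE, adjusted p = 0.755). Csf1r, the receptor for the survival factors Csf1 and Il34, varied least of all 34 markers, with 43.4, 48.5 and 45.6 FPKM in RAS libraries, against 44.2, 48.4 and 45.0 FPKM in controls. Its group means were both 45.9 FPKM, with an SD of 2.56 with RAS and 2.21 in controls (log2 −0.00 ± 0.11 SE, adjusted p = 0.999). Cd68, a glycoprotein of phagocyte lysosomes, lay at 15.3, 17.3 and 19.3 FPKM with RAS, against 16.1, 19.6 and 18.9 FPKM in controls, fully overlapping (log2 −0.07 ± 0.13, adjusted p = 0.875).

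Mpeg1, the pore-forming protein perforin-2 of phagocytes, had 13.5, 12.3 and 13.5 FPKM in RAS libraries, against 7.45, 13.7 and 10.2 FPKM in controls. The RAS libraries were close together and control 1 was low (log2 0.34 ± 0.20, adjusted p = 0.598). Without control 1 the Mpeg1 difference was 0.14. Aif1, the actin-bundling protein Iba1, had 2.93, 2.44 and 2.62 FPKM in RAS libraries, against 3.37, 2.89 and 3.75 FPKM in controls. Its lowest control, control 2, lay just under the highest RAS library, RAS 1, so the groups touched (log2 −0.24 ± 0.13, adjusted p = 0.562). Ms4a7, a membrane-spanning protein of tissue macrophages, had 4.76, 6.66 and 10.6 FPKM with RAS, against 8.48, 10.5 and 9.69 FPKM in controls. The RAS libraries spread widely, with RAS 3 at the top of all 6 and RAS 1 at the bottom (log2 −0.39 ± 0.24, adjusted p = 0.616). Without RAS 3 the Ms4a7 difference was −0.66, which did not pass either.

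The lysozymes Lyz1 and Lyz2, which break bacterial cell walls, differed from each other in steadiness. Lyz2, the myeloid lysozyme, was the highest marker with 322, 434 and 343 FPKM in RAS libraries, against 229, 326 and 445 FPKM in controls. Lyz1 had 12.6, 36.6 and 9.86 FPKM with RAS, against 6.89, 20.1 and 14.9 FPKM in controls. Its highest library, RAS 2, was 5.31 times its lowest, control 1, and the groups overlapped. Neither lysozyme passed the test (log2 0.18 ± 0.26 for Lyz2 and 0.36 ± 0.52 for Lyz1, adjusted p = 0.842 and 0.840). The genes lie side by side on chromosome 10, and 16.1% of the 50-base windows of Lyz1 transcripts also occur in another gene, so reads may be split between them and Lyz1 is uncertain. Lyz1 made up 3.75, 7.79 and 2.79% of the pair's summed FPKM in RAS libraries, against 2.93, 5.81 and 3.24% in controls, and was the larger share in library 2 of each group.

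Laptm5, a lysosomal membrane protein of blood cells, ranged from 33.3 to 49.5 FPKM and had a log2 difference of −0.12 (adjusted p = 0.827). Cx3cr1, the receptor of the adhesion chemokine fractalkine, was below the minimum in every library. It lay at 0.294, 0.280 and 0.173 FPKM with RAS, against 0.498, 0.254 and 0.316 FPKM in controls, on 13.4 to 35.7 scaled counts per library.

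Among the resident-type markers Timd4 was lower with RAS without overlap, Mrc1 had a lower mean that did not pass the test, and Folr2, Clec10a and Cd163 showed no common direction. Timd4, a receptor for phosphatidylserine that takes up dying cells and marks long-lived resident macrophages, lies at chr11:46810799-46844333. It had 4.85, 4.40 and 3.52 FPKM in RAS libraries, against 6.78, 6.27 and 7.99 FPKM in controls. Every RAS library lay below every control, and the means were 4.26 ± 0.677 FPKM with RAS and 7.01 ± 0.883 FPKM in controls (SD, n = 3 each), a ratio of 0.607. The log2 difference was −0.61 ± 0.14 SE with an unadjusted p of 0.003 and an adjusted p of 0.274, rank 136 by p among 12606 genes. It therefore did not pass the threshold.

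The Timd4 values rested on 152 to 210 scaled counts in RAS libraries and 270 to 333 in controls. None of its 50-base windows occurs in another gene. Relative to Emr1, Timd4 stood at 0.343, 0.251 and 0.224 in RAS libraries, against 0.511, 0.383 and 0.590 in controls, again without overlap. Its difference stayed negative when any library was left out, between −0.69 and −0.51, and over all alternatives its adjusted p lay between 0.134 and 0.564.

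Mrc1, the mannose receptor CD206, had 27.1, 29.2 and 30.7 FPKM in RAS libraries, against 35.8, 38.6 and 30.0 FPKM in controls. Controls 1 and 2 lay above all RAS libraries and control 3 lay among them (log2 −0.25 ± 0.13, unadjusted p = 0.097, adjusted p = 0.562). Cd163, the receptor for haptoglobin-bound haemoglobin, had 6.13, 22.4 and 22.9 FPKM with RAS, against 11.3, 21.9 and 6.60 FPKM in controls. Both groups held low and high libraries, so the highest was 3.74 times the lowest, and no direction could be given (log2 0.30 ± 0.56, adjusted p = 0.876). The Cd163 to Mrc1 ratio moved with Cd163, at 0.226, 0.767 and 0.748 in RAS libraries, against 0.316, 0.569 and 0.220 in controls.

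Folr2, the folate receptor of perivascular macrophages, had 40.4, 68.1 and 62.2 FPKM in RAS libraries, against 61.2, 57.7 and 49.8 FPKM in controls. RAS 1 was the lowest library and RAS 2 the highest, and an antisense gene overlaps its locus (log2 −0.01 ± 0.21, adjusted p = 0.987). Clec10a, a lectin for galactose-type sugars, had 39.3, 45.0 and 58.3 FPKM in RAS libraries, against 38.6, 43.0 and 50.6 FPKM in controls, an even spread in both groups (log2 0.10 ± 0.18, adjusted p = 0.876). Its neighbour Mgl2 shares 8.49% of the 50-base windows of Clec10a, so a small part of its reads may be shared. The 5 resident-type differences had a median of −0.01, which was 0.21 without RAS 1, the lowest library for Mrc1, Cd163 and Folr2, and −0.15 without both control 1 and RAS 3.

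**Figure D2:**
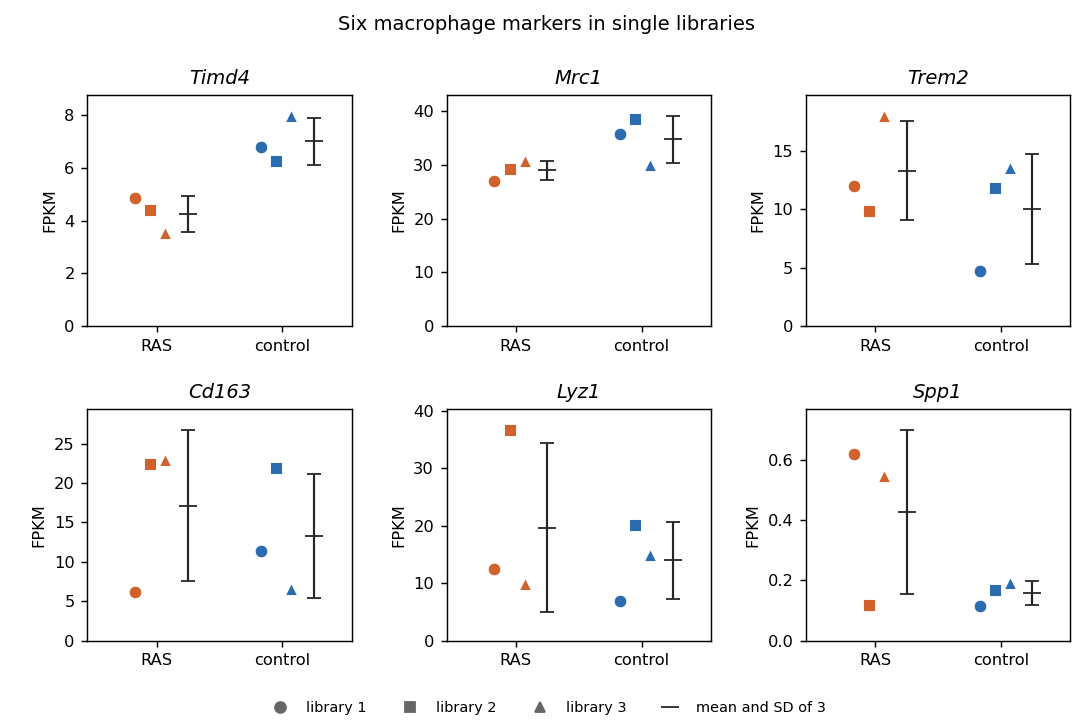
FPKM of Timd4, Mrc1, Trem2, Cd163, Lyz1 and Spp1 in each library, with RAS points left of control points and bars for the mean and SD (n = 3 each). Timd4 is the panel in which all RAS points, 3.52 to 4.85 FPKM, lie below all control points, 6.27 to 7.99 FPKM.

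The lipid-associated markers had log2 differences above 0 for 4 of 4 tested, Lgals3 at 0.01 only, with a median of 0.18, and none passed the test. All 5 markers of the set, Spp1 included, were lowest in control 1, and the direction rested on that library. Without control 1, 1 of the 4 was higher and 3 were lower, with a median of −0.10, and without control 1 and RAS 3 all 4 were lower, with a median of −0.23. Control 1 had the lowest and RAS 3 the highest average of these markers, so leaving out both lowers the median by construction. No opposite pair was left out. With quantile normalization 3 were higher and 1 lower.

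Trem2, the lipid-sensing receptor that signals through Tyrobp, lies at chr17:48346401-48352273 and had 12.0, 9.90 and 18.0 FPKM in RAS libraries, against 4.69, 11.9 and 13.6 FPKM in controls. RAS 3 was the highest and control 1 the lowest, with the other libraries interleaved (log2 0.45 ± 0.37, adjusted p = 0.710). The difference was 0.02 without control 1 and −0.20 without control 1 and RAS 3. Relative to Emr1, Trem2 stood at 0.850, 0.565 and 1.15 in RAS libraries, against 0.353, 0.726 and 1.00 in controls, and the groups overlapped.

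Gpnmb, a glycoprotein of lysosome-rich phagocytes, had 2.64, 1.99 and 2.48 FPKM in RAS libraries, against 0.706, 3.41 and 2.78 FPKM in controls, where control 1 was low and the other two were high (log2 0.14 ± 0.34, adjusted p = 0.912). Cd9, a tetraspanin that many cell types of fat also carry, had 63.8, 43.1 and 58.8 FPKM with RAS, against 32.0, 51.6 and 60.4 FPKM in controls (log2 0.23 ± 0.26, adjusted p = 0.784). The Cd9 groups overlapped, and opposite-strand genes overlap its locus, so without strand its reads may be mixed. Lgals3, the sugar-binding lectin galectin-3, had 51.9, 39.4 and 57.2 FPKM in RAS libraries, against 38.1, 47.3 and 63.2 FPKM in controls, with equal means of 49.5 FPKM (log2 0.01 ± 0.22, adjusted p = 0.988). Spp1, the secreted matrix protein osteopontin, was below the minimum with 0.619, 0.117 and 0.545 FPKM in RAS libraries, against 0.114, 0.169 and 0.192 FPKM in controls. RAS 1 and RAS 3 were the high libraries for Spp1, RAS 2 lay among the controls, and each value rested on 2.9 to 16.8 scaled counts. As 11.6% of its 50-base windows also occur in another gene, Spp1 is uncertain on that ground too.

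To set the resident-type and lipid-associated programmes against each other, a score was computed for each library by centring the log2 values of every tested gene on its own average and averaging within the set. The lipid-associated score was 0.18, −0.19 and 0.31 in RAS libraries, against −0.74, 0.14 and 0.29 in controls. The resident-type score was −0.40, 0.12 and 0.14 in RAS libraries, against 0.03, 0.22 and −0.10 in controls. The lipid-associated minus the resident-type score was 0.59, −0.31 and 0.17 with RAS, against −0.77, −0.08 and 0.39 in controls. Each group held libraries on both sides of 0, so the balance of the 2 sets differed more between libraries of a group than between groups.

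**Figure D3:**
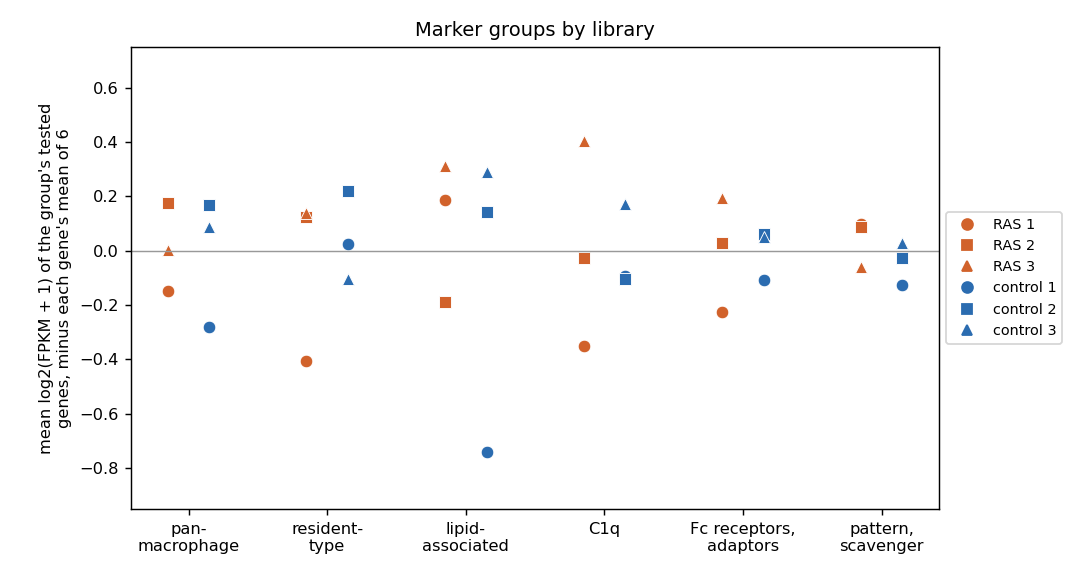
Score of each role group (average of centred log2 values) in each library, RAS libraries left of control libraries. The lowest points are the lipid-associated score of control 1 at −0.74 and the resident-type score of RAS 1 at −0.40.

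The C1q genes encode the 3 chains of the molecule that starts the classical complement pathway, which tissue macrophages produce, and lie next to each other on chromosome 4. C1qa had 91.6, 120 and 168 FPKM in RAS libraries, against 117, 111 and 158 FPKM in controls. C1qb had 82.9, 95.5 and 124 FPKM in RAS libraries, against 89.2, 90.2 and 100 FPKM in controls. C1qc had 77.8, 102 and 138 FPKM in RAS libraries, against 96.5, 98.6 and 111 FPKM in controls. For all 3 chains RAS 1 was the lowest and RAS 3 the highest library, with the controls between them, and the log2 differences were −0.05 ± 0.25, 0.09 ± 0.17 and 0.01 ± 0.21 for C1qa, C1qb and C1qc (adjusted p = 0.958, 0.873 and 0.986). All 3 were higher without RAS 1 and all 3 lower without RAS 3, as also on the authors' scaled counts. The table lists C1qb on a locus shared with another gene model, so its value is less certain. The chains kept their proportions: C1qa was 1.13 to 1.42 times C1qc in the 6 libraries and C1qb was 0.900 to 1.07 times C1qc.

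The Fc receptors, which bind antibody, and their signalling adaptors had 2 members higher and 3 lower with RAS, with a median log2 difference of −0.03, which was 0.11 without RAS 1 and −0.15 without RAS 3. Tyrobp, the adaptor DAP12 shared by Trem2, had 71.8, 99.3 and 88.6 FPKM in RAS libraries, against 65.0, 90.1 and 76.5 FPKM in controls. RAS 2 and control 2 were the high libraries of their groups, and the groups overlapped (log2 0.16 ± 0.18, adjusted p = 0.773). Fcer1g, the adaptor of activating Fc receptors, ranged from 37.9 to 55.2 FPKM (log2 −0.11, adjusted p = 0.840). The high-affinity receptor Fcgr1 ranged from 0.880 to 1.63 FPKM, with a log2 difference of −0.03. Fcgr2b, the inhibitory receptor, and Fcgr3, a low-affinity activating receptor, differed by 0.02 and −0.06 on the log2 scale (adjusted p = 0.978 and 0.927). The Fcgr2b to Fcgr3 ratio was 0.726 to 0.937 over the 6 libraries, with both groups covering most of that range. As 9.58% of Fcgr3 windows occur in another gene, mainly Fcgr2b, this ratio is uncertain.

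Of the pattern-recognition and scavenger receptors, 3 of those tested were higher and 1 lower with RAS, with a median log2 difference of 0.10, which was 0.03 without RAS 1 and 0.16 without RAS 3. Msr1, the class A scavenger receptor for modified lipoproteins, had 2.41, 2.35 and 2.43 FPKM in RAS libraries, against 2.47, 2.59 and 3.11 FPKM in controls. Every RAS library lay below every control, though RAS 3 and control 1 nearly touched, and control 3 was the high one. In the authors' scaled counts the Msr1 groups overlapped, at 117 to 131 with RAS, against 119 to 162 in controls. On FPKM the Msr1 log2 difference was −0.13 ± 0.12 (limma, unadjusted p = 0.320, adjusted p = 0.735). Clec7a, the fungal glucan receptor dectin-1, had 3.42, 2.44 and 2.28 FPKM in RAS libraries, against 1.66, 2.39 and 2.23 FPKM in controls. RAS 1 was high and control 1 low while the other 4 libraries lay close together (log2 0.26 ± 0.17, adjusted p = 0.627).

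Cd14, the co-receptor for bacterial lipopolysaccharide, had 12.4, 14.0 and 19.1 FPKM in RAS libraries, against 10.5, 12.5 and 17.3 FPKM in controls, with library 3 the highest of each group (log2 0.17 ± 0.21, adjusted p = 0.802). Siglec1, the sialic acid receptor of tissue macrophages, ranged from 4.10 to 9.01 FPKM, both of them RAS libraries (log2 0.03 ± 0.27, adjusted p = 0.979). Marco, a second scavenger receptor, was below the minimum with 0.366, 0.211 and 0.431 FPKM in RAS libraries, against 0.075, 0.550 and 0.612 FPKM in controls. Cd83, a surface marker of activated antigen-presenting cells, had a mean of 5.72 ± 2.43 FPKM with RAS and 5.22 ± 0.902 FPKM in controls (SD, n = 3 each, log2 0.06 ± 0.25, adjusted p = 0.949), and RAS 3 was its highest library.

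**Figure D4:**
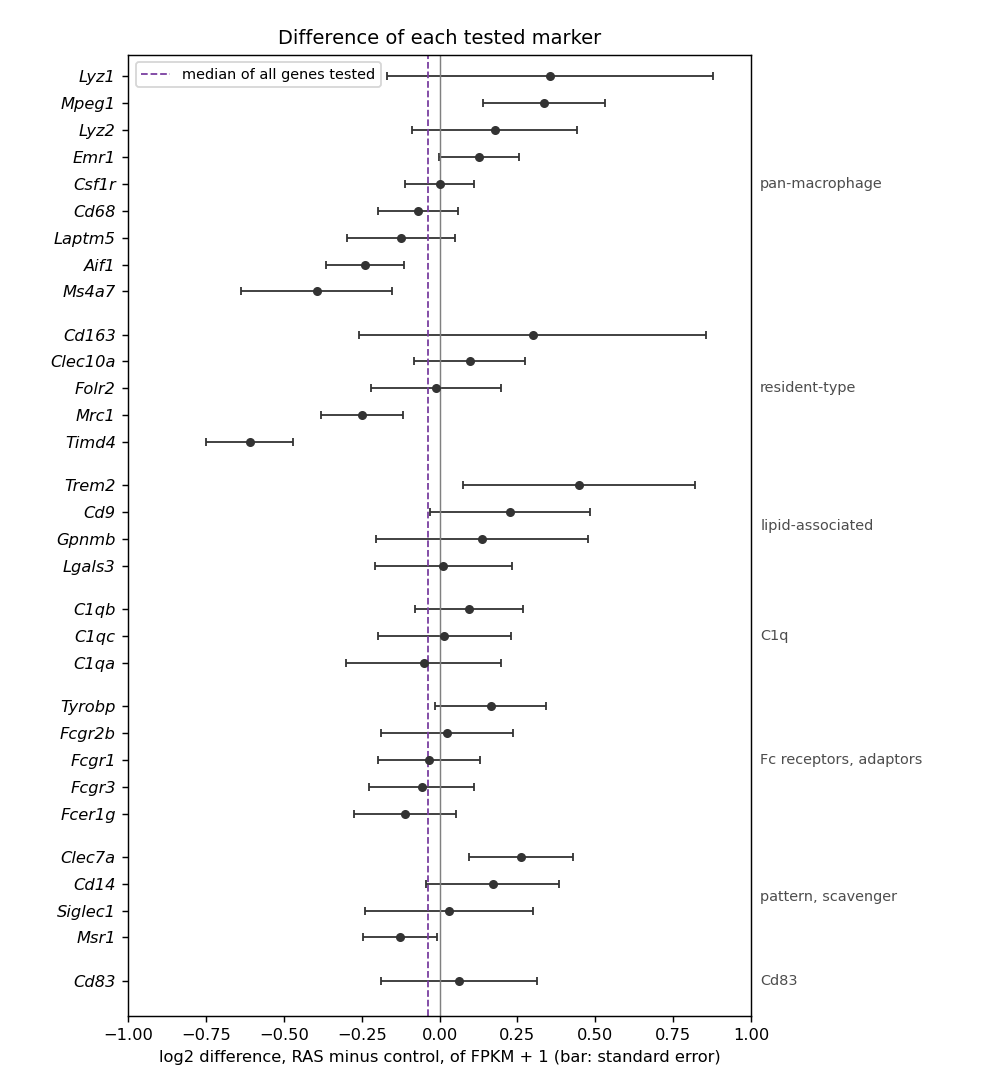
Log2 difference, RAS minus control, of FPKM + 1 for each of the 31 tested markers with its standard error, grouped by role, and the median of all genes tested as a dashed line. Timd4 at −0.61 ± 0.14 lies farthest from 0, and 23 of the 31 differences are smaller than their standard error.

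Other genes of the same roles were read from lists that do not overlap the 34 markers. Of 32 further identity and function genes of macrophages, 12 were higher and 20 lower with RAS, with a median log2 difference of −0.04, beside −0.04 over all genes, and 0 passed the test. The counts were 16 and 16 with quantile normalization, 18 and 14 without RAS 1 or without control 2, 5 and 27 with sample weights, and 4 and 28 without control 1, where the median was −0.11. At an unadjusted p under 0.05, 1 was higher and 2 were lower, or 9.38% of the list, a share near the 10.3% of all genes. Irf8, a transcription factor of the monocyte lineage, had 2.89, 4.21 and 3.41 FPKM in RAS libraries, against 5.62, 5.21 and 4.69 FPKM in controls. All RAS values lay below all controls (log2 −0.46, adjusted p = 0.364). Ncf4, a subunit of the phagocyte oxidase, averaged 4.31 ± 0.328 FPKM with RAS and 5.71 ± 0.324 FPKM in controls, also without overlap (adjusted p = 0.371). Lst1, a small leukocyte protein, went the other way, with means of 10.6 ± 3.32 FPKM with RAS and 6.06 ± 2.20 FPKM in controls and no overlap (log2 0.74, adjusted p = 0.444). The gene of PU.1, listed as Sfpi1, averaged 8.20 ± 2.00 FPKM with RAS and 8.54 ± 0.603 FPKM in controls (adjusted p = 0.904).

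Of 14 further resident-type genes, 3 were higher and 11 lower with RAS (median log2 difference −0.10), and 0 passed the test. The counts were 5 higher and 9 lower with median-ratio size factors, and 6 and 8 without RAS 1 or without control 3. The median was −0.05 without RAS 1, −0.20 without RAS 3 and −0.04 without control 3. Igf1, the growth factor, which fat cells and stromal cells also make, had 30.1, 44.2 and 28.3 FPKM in RAS libraries, against 68.6, 43.0 and 44.6 FPKM in controls. RAS 2 lay among the controls and control 1 was high (log2 −0.59, adjusted p = 0.463). Stab1, a scavenger receptor, differed by −0.27, and Sepp1, a selenium carrier, and Ninj1, a membrane protein, both by 0.25 on the log2 scale (adjusted p = 0.601, 0.658 and 0.730).

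Of 16 further lipid-associated and foam-cell genes tested, 15 were higher and 1 lower with RAS, with a median log2 difference of 0.12, and 0 passed the test. Nceh1 and Abca1, both counted as higher, lay at 0.01 only. The counts were 16 and 0 with median-ratio size factors and 10 and 6 with quantile normalization or without RAS 3, and the median was 0.08 without control 2 and 0.20 without control 1. At an unadjusted p under 0.05, 3 of the 16 were found, or 18.8%, all of them higher. Of all genes tested, 10.3% were found in both directions and 3.86% higher. Lipa, the lysosomal acid lipase that frees cholesterol and fatty acids, had 35.5, 53.6 and 48.5 FPKM in RAS libraries, against 32.0, 28.7 and 29.0 FPKM in controls. Every RAS library lay above every control (log2 0.58 ± 0.17, unadjusted p = 0.010, adjusted p = 0.350). Ctsd, the lysosomal protease cathepsin D, averaged 829 ± 21.7 FPKM with RAS and 589 ± 143 FPKM in controls, and Mmp12, the macrophage elastase, 1.35 ± 0.234 FPKM with RAS and 0.757 ± 0.176 FPKM in controls. Both stood apart without overlap, as 5.42% of all genes did in that direction (adjusted p = 0.466 for Ctsd and 0.447 for Mmp12). Fabp5, a fatty acid binding protein, differed by 0.79 on the log2 scale with overlapping groups (adjusted p = 0.624).

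Fat cells express several of these genes, among them Lpl, Cd36, Plin2 and Fabp5. The fat cell markers Adipoq, Plin1, Cidec, Fabp4, Lep and Pparg, which Fabp4 dominates, summed to 36053 to 52566 FPKM in RAS libraries, against 26051 to 32509 FPKM in controls. Of these 6, 4 were higher and 2 lower with RAS, and 0 passed the test. The part of this in the foam-cell list was not tested.

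The signals that recruit and sustain macrophages had 2 members higher and 8 lower with RAS among 10 tested genes, with a median log2 difference of −0.22, and 0 passed the test. The counts were 3 and 7 with quantile normalization and 4 and 6 without RAS 1, without RAS 3 or without control 3. The median was −0.13 without RAS 1 and −0.34 without RAS 3 or without control 1. At an unadjusted p under 0.05, 3 of the 10 were found (30%), all lower. Of all genes tested, 10.3% were found in both directions and 6.41% lower. Csf1, the growth factor that Csf1r binds, had 14.9, 14.0 and 12.9 FPKM in RAS libraries, against 16.5, 18.5 and 18.6 FPKM in controls, all RAS values below all controls (log2 −0.34 ± 0.11, adjusted p = 0.386). Ccl2, the main chemokine for monocytes, had 1.83, 1.63 and 1.57 FPKM in RAS libraries, against 4.24, 4.30 and 4.21 FPKM in controls, without overlap. The Ccl2 log2 difference was −0.97, and its adjusted p of 0.138 was the smallest value over all genes tested. Ccl7, a relative of Ccl2, differed by −0.46 with overlapping groups (adjusted p = 0.581). Cx3cl1, the ligand of Cx3cr1, averaged 1.01 ± 0.287 FPKM with RAS and 1.84 ± 0.155 FPKM in controls, without overlap (adjusted p = 0.369). On the receiving side Csf1r had the equal means given above, and Ccr2, the receptor of Ccl2, averaged 7.74 ± 2.05 FPKM with RAS and 7.81 ± 0.847 FPKM in controls (adjusted p = 0.962).

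Of 5 tested genes of activation state, 1 was higher and 4 were lower with RAS (2 and 3 with median-ratio size factors), with a median log2 difference of −0.35, and 0 passed the test. Nos2, the inducible nitric oxide synthase of inflammatory macrophages, differed by −0.83 without overlap (adjusted p = 0.261), and the interferon-induced chemokine Cxcl10 by −0.35 with overlap (adjusted p = 0.502). Retnla, a secreted protein of alternatively activated macrophages that fat cells also make, averaged 560 ± 125 FPKM with RAS and 743 ± 64.7 FPKM in controls (adjusted p = 0.535). Ccl5, a T cell chemokine, differed by 0.54, with RAS 3 as the high library (adjusted p = 0.598). The inflammatory cytokine Il1b lay at 0.227 to 0.277 FPKM in RAS libraries, against 0 to 0.133 FPKM in controls, below the minimum and so not tested. Tnf, another inflammatory cytokine below the minimum, went the other way, at 0.123 to 0.124 FPKM in RAS libraries, against 0.152 to 0.317 FPKM in controls. The other genes of this list below the minimum, Il6, Arg1, Chi3l3 and Il10, had overlapping groups.

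Markers of other immune cells that share some of these genes were also read. Neutrophil markers, 7 of them in the table, summed to 11.5 to 21.4 FPKM in RAS libraries, against 6.46 to 9.59 FPKM in controls, with single members in both directions. S100a8, S100a9 and Retnlg made up most of the sum, each with overlapping groups. S100a8 had 15.5, 3.58 and 5.16 FPKM with RAS, against 5.96, 2.78 and 2.73 FPKM in controls. S100a9 reached 7.08 FPKM in RAS 3 but 0.482 FPKM in RAS 1, and Retnlg 5.80 and 0.329 FPKM. Their log2 differences, in that order, were 0.75, 0.65 and 0.86 (adjusted p = 0.628, 0.714 and 0.680). The granule genes Ngp and Mpo were at or near 0 throughout, Elane, a granule protease, was at 0.930 to 2.04 FPKM with RAS, against 0.414 to 0.689 FPKM in controls, and Csf3r, the receptor for the neutrophil growth factor, averaged 1.04 FPKM with RAS and 1.53 FPKM in controls. The sum of 5 monocyte markers was 60.3 to 90.9 FPKM with RAS, against 44.4 to 96.7 FPKM in controls, and the 8 dendritic cell markers summed to 15.1 to 21.7 FPKM with RAS, against 16.7 to 27.6 FPKM in controls. Of these, 4 neutrophil, 4 monocyte and 5 dendritic cell markers reached the minimum and were tested, and 0 passed. The others, Elane among them, lay below the minimum and were not tested. The part of all these markers in the macrophage values was not tested either. Clec4f, the defining gene of liver macrophages, was at 0 in every library except control 3, where it was 0.127 FPKM.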

How the data were processed

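Oligo(dT)-selected RNA was made, per the labels' protocols, into TruSeq libraries sequenced on an Illumina HiSeq. The authors deposited FPKM values per gene and sample, and these were used unchanged. The submitters' processing notes list TopHat2 2.0.9 and Cufflinks 2.1.1, without strand settings. The genome build is not given in the sources used here. Over the whole table, 18403 genes had an Ensembl identifier in GENCODE M21 (GRCm38), and 99.7% of their loci overlapped that gene. Of the 34 markers, 33 had an identifier there, and their positions were not counted apart. The authors also deposited a scaled count signal per gene, which was not whole reads, so no count model was run. Each group had 4 more value columns, left unused. Columns named with the treatment protocol's code for the RAS mice were taken as RAS, and the other set as control by elimination.

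Genes averaging 1 FPKM or more in the 6 samples were tested with limma 3.58.1 (R 4.3.3, lmFit and eBayes with a trend) on log2(FPKM + 1), two-sided, with Benjamini-Hochberg adjustment over 12606 genes and a threshold of 0.05. A difference is RAS minus control on that scale, where the pseudocount shrinks differences of low genes, and FPKM compares levels per transcript length. Lists are described by counts and medians, with no list test. The markers, lists and tests were chosen with earlier results of these data known. Values per sample are given for the resident-type, lipid-associated and C1q genes, for Emr1, Csf1r, Cd68, Mpeg1, Lyz1 and Lyz2, and for the 3 other markers with the smallest p in each direction. The 3 markers below the minimum are also given per sample, the other markers by range or difference, and up to 4 genes of each further list in order of p. Genes with levels given beyond that (Sfpi1, Ccr2, Il1b, Tnf and the markers of other cells) were picked for their known roles after the values were seen. The same limma steps were checked on simulated data. Alternatives were a pseudocount of 0.1, a minimum of 5 FPKM or none, median-ratio size factors, quantile normalization, sample weights, a robust variance model, a replicate block, scaled counts in place of FPKM, and libraries left out. Shared 50-base windows were counted in the reference transcripts. Tables and figures used Python 3.11.15, pandas 2.3.3, numpy 2.4.6 and matplotlib 3.10.9.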

Additional observations from a re-analysis of the deposited data

How the results depend on the processing

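Under all 16 alternatives 0 of the tested markers passed the threshold, and the smallest adjusted p of any marker was 0.134. Over all genes, 0 passed as reported with limma (1294 at an unadjusted p under 0.05), 3 with control 1 and RAS 3 left out together, and 0 to 2 with 1 library left out, the highest without control 1. Unadjusted counts lay between 911 and 1850 over the alternatives, the lowest with a minimum of 5 FPKM and the highest with sample weights. Of 491 marker differences under alternatives, 63 had the other sign, spread over 21 markers.

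The median log2 difference of the markers, 0.02, was −0.17 with control 1 and RAS 3 left out together and −0.08 to 0.13 with 1 library left out. The resident-type median, −0.01, was −0.16 to 0.21 with 1 library left out, the lipid-associated median, 0.18, was −0.10 to 0.35, and the pan-macrophage median, −0.00, was −0.07 to 0.04. The Trem2 difference, 0.45, was −0.20 with control 1 and RAS 3 left out together. The cause of these shifts was not tested beyond the libraries left out. Leaving out control 1 and RAS 3 together lowers by construction the difference of a marker low in the first and high in the second.

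With the replicate block 0 genes passed, 1663 at an unadjusted p under 0.05, and 0 markers. Deviations of same-numbered samples correlated at 0.178, 0.096 and 0.219, so the numbers were not taken as pairs, although each sample correlated best with its own number, which is a hint from the data and not the design. With 3 samples a group, an exact permutation test of 1 gene cannot go below p = 0.1. The read depth is unknown, since the deposited counts are scaled.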
